A study of Homo sapiens
Mus musculus and Mus musculus and Homo sapiens with 16 samples.

Results

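Of the 7533 rows annotated as long intergenic noncoding RNA (lincRNA) in the human count table, 93 had at least 20 counted fragments in each of the 12 REC-1 libraries, and these 93 transcripts are described here. They made up 1.23% of the lincRNA rows and were drawn from 58051 human rows in all, while 5083 lincRNA rows had no count in any of the 12 libraries. The members were therefore chosen by their counts, and their levels are a description. Individual values are given for 92 of them, and the remaining one is included only in totals. REC-1 is a human mantle cell lymphoma (MCL) line, and it was grown alone (Sep) or for 24 h with MS-5, a mouse bone marrow stromal line. The study kept MCL lines in RPMI, MS-5 in αMEM, and cocultures as it kept MS-5. It does not name the medium of the Sep cultures that were sequenced, so a difference in medium from the cocultures is possible. From the cocultures, REC-1 cells that remained in suspension (Susp) and those that had adhered to MS-5 (Adh) were collected separately. Adherent cells were not parted from the stroma, so each Adh library was a mixture in which the authors assigned reads to human or mouse by sequence. Each group had 4 libraries and a single line of each species was used, so donors are not represented. The labels number the replicates, and the study describes them as independent experiments of these lines. Whether libraries with the same number came from the same experiment is not given in the sources used here.

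Long noncoding RNAs are transcribed by RNA polymerase II, often spliced and polyadenylated, but not known to be translated. Some of them stay in the nucleus and organise bodies there, others are the precursors from which small nucleolar RNAs or microRNAs are cut, and others bind proteins in the cytoplasm. NEAT1 is the scaffold of paraspeckles, and MALAT1, encoded next to it, is a component of nuclear speckles. Both have a 3′ end that is not made by ordinary polyadenylation: RNase P cuts the precursor upstream of a tRNA-like fold, and U-rich stretches fold back on a genomically encoded A-rich tract to protect the new end. NEAT1 also has a short isoform with a regular poly(A) tail.

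The sequences of NEAT1 and MALAT1 are shown because these neighbouring genes had the largest falls between Adh and Sep. The window at the 3′ end of MALAT1 was chr11:65506017-65506116 and that of NEAT1 chr11:65445461-65445540, both on the plus strand of GRCh38. Capitals mark the U-rich stretches (written with T) and the A-rich tract. The NEAT1 window was 80 bases and that of MALAT1 100, so a U-rich stretch upstream of the NEAT1 window would not be shown.
MALAT1 3′ end: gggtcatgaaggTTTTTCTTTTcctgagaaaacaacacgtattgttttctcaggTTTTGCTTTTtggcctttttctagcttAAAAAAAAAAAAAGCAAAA
NEAT1 3′ end: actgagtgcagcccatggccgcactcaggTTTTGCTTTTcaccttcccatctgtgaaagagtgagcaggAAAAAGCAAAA
The tract was 19 bases in MALAT1 and 11 bases in NEAT1. It closed the annotated NEAT1 gene, whereas 1957 annotated bases followed it in MALAT1. Poly(A) selection, which preceded sequencing here, can capture an RNA through such a tract as well as through a tail.

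Promoter windows of 300 bases, from 250 before to 50 after the start of the canonical transcript, were read for the same pair and for LINC00665, the member that rose. They were chr11:65422548-65422847 (plus strand) for NEAT1, chr11:65497390-65497689 (plus) for MALAT1 and chr19:36321275-36321574 (minus) for LINC00665, all GRCh38. The annotated LINC00665 gene reaches upstream to chr19:36331770, so this window lies inside the gene and starts further upstream were not read. Which start REC-1 cells used was not tested. Capitals mark matches on either strand to 5 sets of letters: TATAAA for the TATA box, GGGCGG for the GC box, CCAAT for the CCAAT box, CCGGAA for the core of ETS sites and CACGTG for the E-box, which do not overlap one another in these windows.
NEAT1 promoter: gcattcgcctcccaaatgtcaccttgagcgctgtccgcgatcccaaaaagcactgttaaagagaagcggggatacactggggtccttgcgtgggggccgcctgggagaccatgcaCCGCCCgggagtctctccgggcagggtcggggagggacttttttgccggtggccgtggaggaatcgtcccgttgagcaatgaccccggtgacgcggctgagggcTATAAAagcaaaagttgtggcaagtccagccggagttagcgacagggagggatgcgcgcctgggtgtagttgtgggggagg
MALAT1 promoter: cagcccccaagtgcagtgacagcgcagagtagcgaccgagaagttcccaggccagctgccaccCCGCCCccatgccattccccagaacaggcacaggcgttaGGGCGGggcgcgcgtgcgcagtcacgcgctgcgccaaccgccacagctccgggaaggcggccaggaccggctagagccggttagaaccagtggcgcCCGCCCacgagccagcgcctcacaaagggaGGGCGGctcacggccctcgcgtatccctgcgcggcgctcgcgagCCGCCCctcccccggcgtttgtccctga
LINC00665 promoter: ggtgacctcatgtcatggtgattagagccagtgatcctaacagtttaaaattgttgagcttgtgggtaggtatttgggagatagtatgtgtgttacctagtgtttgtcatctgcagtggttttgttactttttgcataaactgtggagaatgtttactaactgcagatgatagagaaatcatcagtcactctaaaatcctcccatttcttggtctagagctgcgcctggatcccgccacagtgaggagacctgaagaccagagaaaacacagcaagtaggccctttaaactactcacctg
NEAT1 had 1 TATAAA and 1 GGGCGG match, MALAT1 had 5 GGGCGG matches, and LINC00665 had none of the 5 motifs. Of the 86 members with a start in GENCODE 44, 13 held TATAAA, or 15.1%, and TATAAA occurred in 6.06% of the 12773 promoters of tested genes. GGGCGG was found in 30 members, or 34.9%, and in 69.8% of all tested promoters. CCGGAA was found in 10 members (11.6%, against 29.6% of all), CCAAT in 32 (37.2%, against 36.6%) and CACGTG in 6 (6.98%, against 9.86%). The median promoter of a member was 54.0% G or C with 7.5 CpG, and that of all tested genes was 65.3% with 26 CpG. The promoters were not uniform, however, since that of MALAT1 was 71.7% G or C with 34 CpG and that of LINC00665 was 43.3% with 2.

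The label intergenic was checked against GENCODE 44. Of the 86 matched members, 83 were long noncoding RNA genes there, 2 were transcribed pseudogenes (GS1-124K5.11, now RABGEF1P1, and LINC00869) and 1, AC093323.3, was a protein-coding gene. A further 6 described members were not matched and have no position or length here. The body of 26 matched members overlapped a protein-coding gene, 17 on the opposite and 9 on the same strand, and 60 were separate from one. Of the separate members, 19 lay within 5000 bases of a coding gene. In addition, 13 members started within 1000 bases of a coding gene transcribed in the other direction, among them SLC12A2, PCCA and HK2. The library kit does not by itself record strand, and the sources used here do not state that counting used it. Reads of the 26 members that overlap a coding gene, on either strand, therefore cannot be told apart from reads of that gene where exons overlap. A single exon made up the canonical transcript of 28 members. The median exon length of members was 4000.5 bases against 5171 for all tested genes, and their median exon GC content was 44.2% against 47.4%.

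Human counts ranged from 7758979 to 21467832 per library, and members took 9515 to 27061 of them. In Sep libraries 1 to 4, the members' share of human counts was 0.134, 0.152, 0.136 and 0.138%. In Susp libraries it was 0.140, 0.136, 0.126 and 0.131%, and in Adh libraries 0.128, 0.129, 0.126 and 0.121%. The Adh values were below all Sep values and overlapped the Susp values, and group means were 0.140% ± 0.0083 in Sep, 0.133% ± 0.0062 in Susp and 0.126% ± 0.0038 in Adh (SD, n = 4). Wilson 95% intervals, which cover counting error only, were narrow, for example 0.150 to 0.154% for Sep replicate 2 and 0.118 to 0.123% for Adh replicate 4. In the same libraries mitochondrial genes took 1.73% of human counts in Sep, 1.74% in Susp and 0.566% in Adh, and with these genes left out the members' share was 0.142, 0.136 and 0.127%. The human part of the Adh libraries was 28.2, 26.0, 18.3 and 20.2% of all assigned counts. Susp replicate 2 stood apart from its group: the chi-square of its counts against each other Susp library was 54.1 to 59.0 per gene, where other pairs within a group had 4.21 to 21. As a check of the labelled cell type, 10 B-cell and MCL markers summed to 9852 to 13889 CPM (counts scaled to a common library total) over the 12 libraries. The 10 stromal markers summed to 3.94 to 5.54 CPM in Sep, 2.77 to 4.65 in Susp and 4.04 to 5.91 in Adh, with CXCL12, LUM and VCAM1 at 0 throughout and no marker other than FN1 above 6 counts.

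Few members were abundant. The mean over 12 libraries ranged from 34.25 to 2395 counts, with a median of 91.3, and 51 described members were below 100. The 5 highest by counts (NORAD, EBLN3P, SNHG15, MALAT1 and NEAT1) held 37.5% of all member counts. Per length, the median mean level was 1.98 RPKM, CPM divided by exon length in kilobases, with a range of 0.171 to 34.8. Protein-coding genes under the same count minimum had a median of 7.81 RPKM and antisense genes 1.71 RPKM. On this scale NORAD, which binds Pumilio proteins in the cytoplasm, was the highest at 34.8 RPKM, followed by SNHG15 at 16.8, CTB-193M12.5 at 13.1, EBLN3P at 12.5, RP11-734I18.1 at 10.5, LINC00996 at 10.3, LINC01215 at 9.73, EPB41L4A-AS1 at 8.65, LINC01480 at 7.68 and GS1-124K5.11 at 7.01. CTB-193M12.5 lies within NDE1 on the same strand, so its reads are not certain to be its own. MALAT1 and NEAT1, with exon lengths of 10434 and 22767 bases, were at 5.55 and 2.42 RPKM. Within a group the median coefficient of variation of a member's CPM was 17.1% in Sep, 17.8% in Susp and 18.5% in Adh. SNHG15 varied least among Adh libraries (3.07%) and RP11-618L22.1, among the members nearest the minimum, varied most among Sep libraries (57.1%).

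At the minimum, the lowest count was 20 in GS1-124K5.11, LINC00936, RP11-121C2.2 and RP11-458F8.4, and 21 in RP11-618L22.1. Just outside, it was 19 in RP11-111M22.3 and EIF3J-AS1, and 18 in RP11-332H14.2, RP11-242D8.1 and RAB30-AS1. Most of these lowest counts were in Adh replicates 3 and 4, the shallowest libraries. A total of 95 lincRNA rows with a mean of at least 20 counts were left out by the minimum. Of these, 4 passed the test between Adh and Sep described next: RP11-332H14.2 (log2 fold change -0.91), RP4-669L17.10 (-1.4996), LINC00106 (-1.51) and AC007131.1 (1.41).

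Adh cells were first compared with Sep cells, from which they differed in coculture, in adhesion and possibly in medium. These cannot be told apart in this comparison, and only the Adh libraries were mixed with mouse RNA. NEAT1 and MALAT1, both nuclear RNAs, fell by over 2-fold against REC-1 cells grown alone, and 4 further members fell by 1.59- to 1.997-fold. LINC00665 was the single member that rose, by 1.54-fold. Calls were made with edgeR's quasi-likelihood test over 12861 genes: a Benjamini-Hochberg adjusted p no higher than 0.05 and a fold change no smaller than 1.5 were required. By this rule 7 of 93 members were called, or 7.53%, 1 higher and 6 lower, where 2.40% of all tested genes were called, 0.583% as higher and 1.82% as lower. Under the same count minimum 3 of 97 antisense genes and 2.01% of 9597 protein-coding genes were called. The median log2 fold change was -0.015 over the members and -0.0034 over all tested genes. An unadjusted p under 0.05 in the edgeR test was reached by 20 members, or 21.5%, against 20.2% of all tested genes. For 15 members the libraries of both groups did not overlap, 3 higher and 12 lower in Adh, which is 16.1% against 15.7% of all tested genes. In bulk RNA, a change in every cell and a different mixture of cells cannot be told apart.

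**Figure D1:**
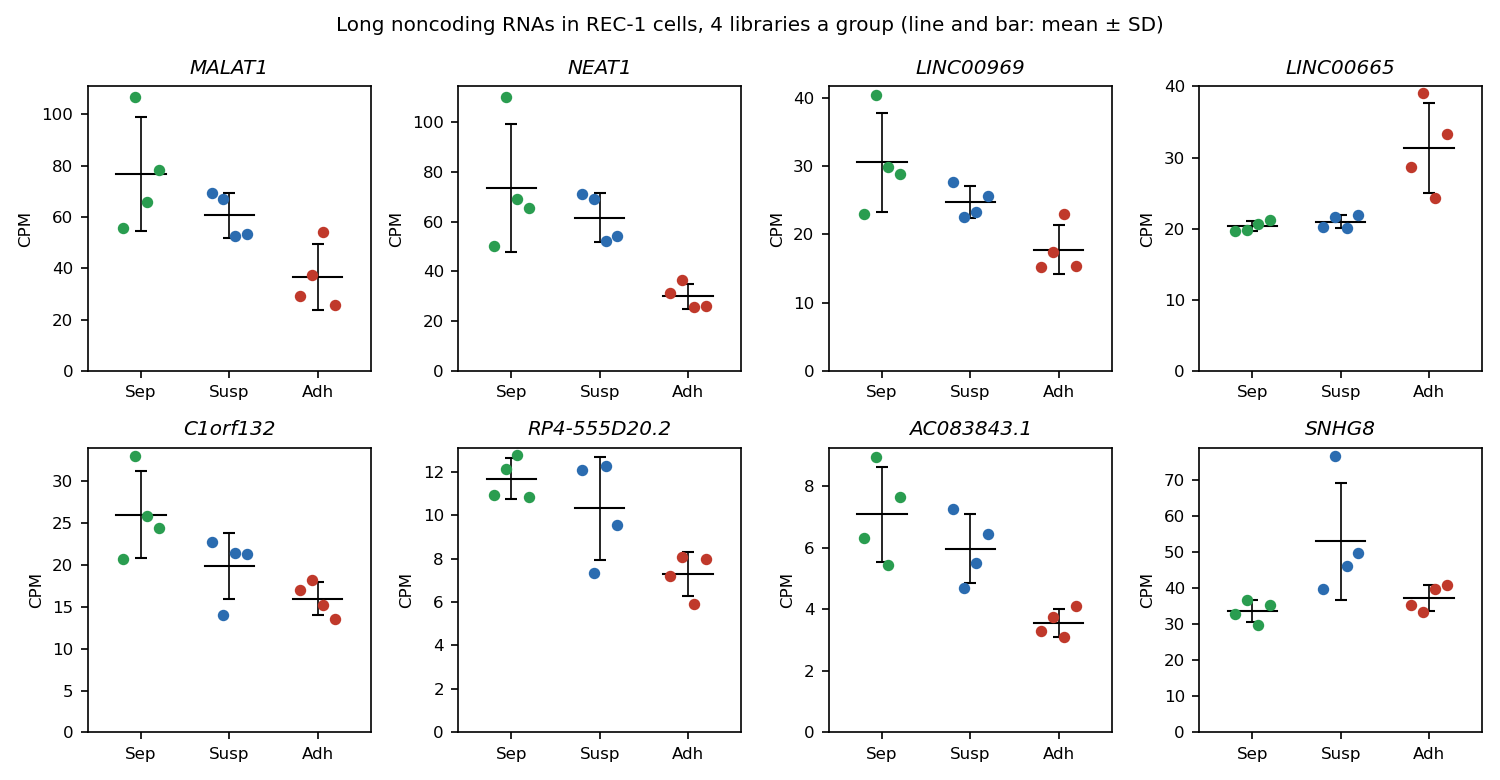
CPM in each library (points) of the 7 members called in any comparison and of SNHG8, in Sep, Susp and Adh cells with 4 libraries each; lines and bars are the mean ± SD, and axes start at 0. For NEAT1 all Adh points (25.7 to 36.5 CPM) lie below all Sep and Susp points, and for LINC00665 all lie above.

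NEAT1 (ENSG00000245532, chr11:65422774-65445540, plus strand, 1 exon) had 50.2, 110.3, 69.2 and 65.3 CPM in Sep, 71.1, 69.3, 52.2 and 54.2 in Susp, and 31.3, 36.5, 25.7 and 26.2 in Adh. Every Adh library was below every other library, while Sep replicate 2 was by far the highest of its group and Sep and Susp overlapped. NEAT1 was 2.45-fold lower in Adh than in Sep (log2 fold change -1.29, SE 0.20, adjusted p = 0.00133, edgeR). It was also 2.05-fold lower in Adh than in Susp (log2 fold change -1.04, SE 0.20, adjusted p = 0.0172). The call against Sep held under all 18 alternatives, with a highest adjusted p of 0.00823. The call against Susp was lost without Adh replicate 1, 3 or 4, at adjusted p of 0.0521, 0.0696 and 0.0578, with log2 fold changes of -1.06, -0.98 and -0.98.

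MALAT1 (ENSG00000251562, chr11:65497640-65508073, plus strand) starts 52099 bases after the end of NEAT1. It had 55.6, 106.9, 65.7 and 78.3 CPM in Sep, 69.5, 66.9, 52.5 and 53.5 in Susp, and 29.1, 37.5, 54.1 and 25.5 in Adh. All Adh libraries were below all Sep libraries, but Adh replicate 3 reached into the Susp range, and Sep replicate 2 was again the highest. MALAT1 was 2.10-fold lower in Adh than in Sep (log2 fold change -1.07, SE 0.22, adjusted p = 0.0113), and without Sep replicate 2 the call was lost (log2 fold change -0.87, adjusted p = 0.0569). Against Susp its log2 fold change was -0.73 (adjusted p = 0.109), and without Adh replicate 3 this became -0.98 and was called (adjusted p = 0.0459). FRMD8, the coding gene nearest to NEAT1 at 9249 bases, had a log2 fold change of -0.13 between Adh and Sep (adjusted p = 0.62).

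Mouse Neat1 and Malat1 were counted in the mouse part of the Adh libraries and in MS-5 cells alone. Human NEAT1 had 417, 379, 200 and 204 counts in Adh libraries, beside 2181, 1327, 1489 and 1344 counts on mouse Neat1. Human MALAT1 had 387, 389, 421 and 199, beside 2539, 3321, 3789 and 2669 on mouse Malat1, so that most NEAT1 and MALAT1 fragments of an Adh library were assigned to mouse. The part of species assignment in the human values was not tested. In the mouse tables, scaled apart from the human ones, Neat1 was at 70.0 ± 31.7 CPM in MS-5 alone and 48.8 ± 10.5 CPM in Adh, and Malat1 at 104.9 ± 23.2 and 95.5 ± 18.5 (SD, n = 4). The ranges of both mouse genes overlapped between MS-5 alone and Adh.

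**Figure D2:**
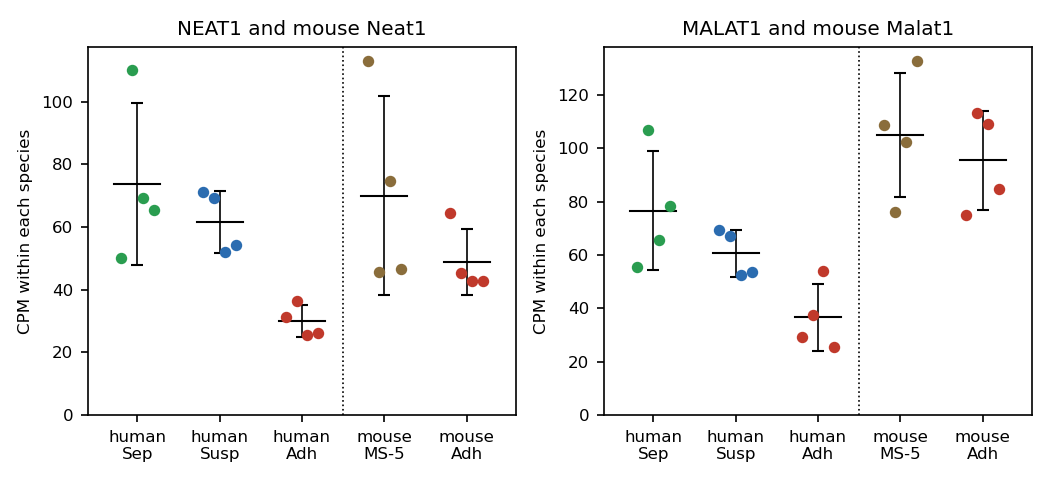
CPM of human NEAT1 and MALAT1 in Sep, Susp and Adh (left of the dotted line) and of mouse Neat1 and Malat1 in MS-5 alone and Adh (right), each scaled within its species; points are libraries, lines and bars the mean ± SD (n = 4). The human Adh points lie below the Sep points, while mouse Adh points overlap those of MS-5 alone.

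LINC00665 (ENSG00000232677, chr19:36259540-36331770, minus strand) lies in a zinc finger gene cluster, 2683 bases from ZFP14. It had 19.7, 19.8, 20.7 and 21.2 CPM in Sep, 20.2, 21.7, 20.2 and 21.9 in Susp, and 28.6, 39.1, 24.3 and 33.4 in Adh. Every Adh library was above all others, and the Sep and Susp libraries lay within a narrow range. The log2 fold change between Adh and Sep was 0.62 (SE 0.13, adjusted p = 0.0141), and the call was lost without Sep replicate 2 (adjusted p = 0.0562) and without Adh replicate 2 (log2 fold change 0.50, under the fold minimum). Against Susp it was 1.496-fold higher, under the fold minimum, with a log2 fold change of 0.58 (adjusted p = 0.0409), and was not called. It was called against Susp without Susp replicate 2 (log2 fold change 0.61, adjusted p = 0.0308) and without Adh replicate 3 (0.68, adjusted p = 0.0160). ZFP14 had a log2 fold change of -0.22 between Adh and Sep (adjusted p = 0.58).

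C1orf132 (ENSG00000203709, now MIR29B2CHG, chr1:207760650-207879115, minus strand) is the host transcript of miR-29b-2 and miR-29c. It had 20.7, 33.1, 25.8 and 24.4 CPM in Sep, 22.7, 14.0, 21.4 and 21.4 in Susp, and 16.99, 18.2, 15.2 and 13.6 in Adh. The Adh libraries were all below the Sep libraries and overlapped Susp only through Susp replicate 2. It was 1.62-fold lower in Adh than in Sep (log2 fold change -0.69, SE 0.17, adjusted p = 0.0351). Leaving out any Adh library, or Sep replicate 2, 3 or 4, ended this call, with adjusted p between 0.0505 and 0.143 and log2 fold changes between -0.56 and -0.76. Its body overlaps CD46 on the opposite strand, and CD46 had a log2 fold change of 0.02 (adjusted p = 0.93). The microRNAs themselves were not measured.

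LINC00969 (ENSG00000242086, now MUC20-OT1, chr3:195658062-195739964, plus strand) had 23.0, 40.4, 29.9 and 28.9 CPM in Sep, 27.7, 22.6, 23.3 and 25.6 in Susp, and 15.3, 17.4, 23.0 and 15.4 in Adh. Adh replicate 3 met the lowest Sep library, and the other Adh libraries were below all Sep and Susp libraries. The log2 fold change between Adh and Sep was -0.79 (SE 0.17, adjusted p = 0.0164). The call was lost without Sep replicate 2 (log2 fold change -0.62, adjusted p = 0.0791), Adh replicate 1 (-0.72, adjusted p = 0.0587) or Adh replicate 4 (-0.73, adjusted p = 0.0562). It overlaps MUC20 on the same strand, and MUC20 was too low to be tested.

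AC083843.1 (ENSG00000259820, not matched in GENCODE 44) had 6.30, 8.95, 5.44 and 7.66 CPM in Sep, 7.23, 4.67, 5.51 and 6.45 in Susp, and 3.31, 3.76, 3.08 and 4.11 in Adh. Every Adh library was below all Sep and Susp libraries. The log2 fold change between Adh and Sep was -0.998 (SE 0.21, adjusted p = 0.0161), and it was lost without Sep replicate 2, Sep replicate 4 or Adh replicate 1 (adjusted p = 0.0772, 0.0519 and 0.0548). RP4-555D20.2 (ENSG00000261786, chr3:44117299-44122365, plus strand, 1 exon) had 10.9, 12.1, 12.8 and 10.8 CPM in Sep, 12.1, 7.31, 12.3 and 9.54 in Susp, and 7.22, 8.09, 5.91 and 7.95 in Adh. Its Adh libraries were below all Sep libraries, and Susp replicate 2 lay among them. The log2 fold change was -0.67 (SE 0.18) at an adjusted p of 0.04997, just under the threshold. Leaving out any library other than Sep replicate 1 and Susp replicate 2 ended this call, with adjusted p between 0.0529 and 0.138.

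Among members not called, the next largest rises were RP5-887A10.1 and PWAR6, a transcript of the Prader-Willi region. RP5-887A10.1 had 5.90, 4.69, 5.34 and 5.98 CPM in Sep, 6.24, 12.4, 7.01 and 6.78 in Susp, and 7.14, 10.4, 7.32 and 8.34 in Adh, with log2 fold changes of 0.60 between Adh and Sep (adjusted p = 0.145) and 0.56 between Susp and Sep (adjusted p = 0.229). Its Sep libraries were below all cocultured ones. PWAR6 had 2.68, 3.77, 3.56 and 2.71 CPM in Sep, 3.12, 2.52, 2.42 and 3.36 in Susp, and 4.59, 6.84, 3.73 and 3.72 in Adh, with log2 fold changes of 0.59 against Sep (adjusted p = 0.195) and 0.74 against Susp (adjusted p = 0.142). Its Adh libraries were above all Susp libraries and met the Sep range.

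**Figure D3:**
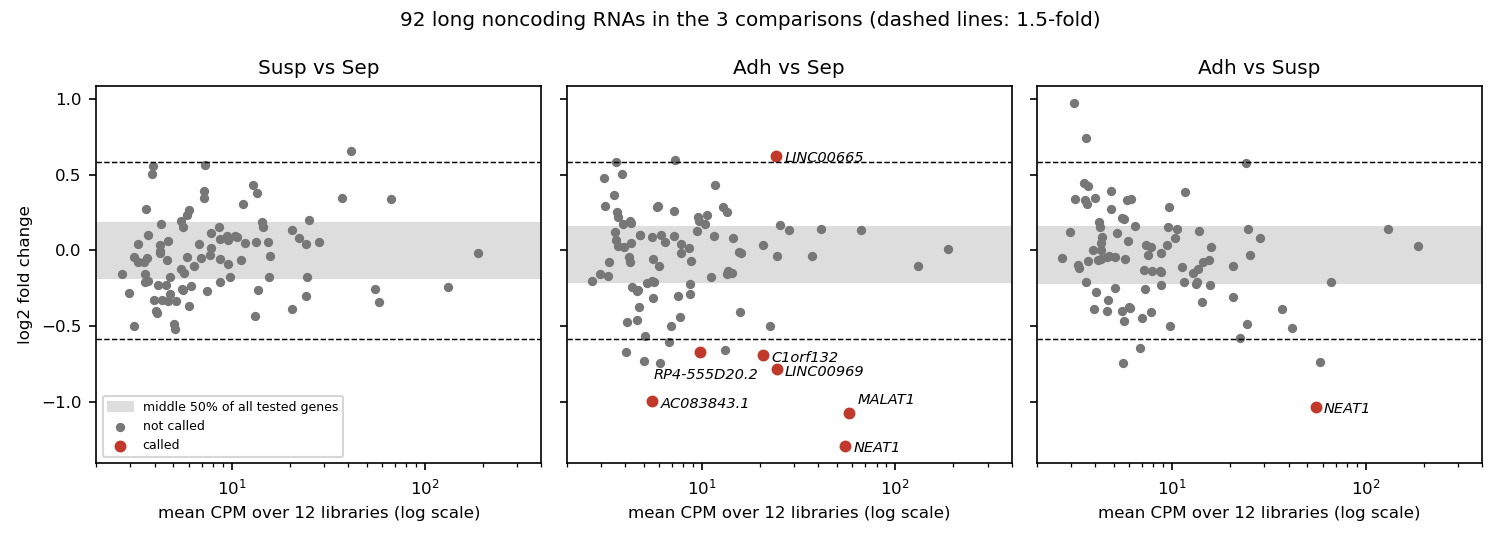
Log2 fold change of each of 92 members against its mean CPM over 12 libraries (log axis) in the 3 comparisons; red points were called, dashed lines mark a 1.5-fold change, and the grey band holds the middle 50% of all 12861 tested genes. Red points are absent between Susp and Sep, number 7 between Adh and Sep and 1 between Adh and Susp.

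Adh cells were then compared with Susp cells, the other fraction of the cocultures. Only the Adh libraries held mouse RNA, and cells that adhered may have differed from the others beforehand. An effect of contact cannot be told apart from these here. Whether same-numbered Adh and Susp libraries came from the same dish is not given, and the fit did not pair them. NEAT1 was the single member called, or 1.08% of 93, where 0.778% of all tested genes were called and 0.669% as lower. Without the fold minimum LINC00665 also passed, against 0.941% of all tested genes that then passed, and DESeq2 called 4 members (LINC00158, LINC00665, MALAT1 and NEAT1). The median log2 fold change was -0.051 over the members and -0.0051 over all tested genes, and libraries did not overlap for 8 members, or 8.60%, against 11.4% of all. An unadjusted p under 0.05 in the edgeR test was reached by 16 members, or 17.2%, against 18.0% of all tested genes. LINC00158 had the largest rise among the members, with 3.94, 2.93, 3.35 and 1.91 CPM in Sep, 2.39, 2.09, 1.84 and 2.28 in Susp, and 5.86, 2.89, 3.47 and 4.49 in Adh. All Adh libraries were above all Susp libraries, and its log2 fold change was 0.97 (SE 0.28, adjusted p = 0.0978). LINC00996, which lies beside the GIMAP genes for immune GTPases, had 21.5, 30.6, 20.4 and 24.5 CPM in Sep, 28.1, 29.4, 22.2 and 22.9 in Susp, and 16.1, 17.5, 18.1 and 17.1 in Adh. Its Adh libraries were below all others, and its log2 fold changes were -0.58 against Susp (adjusted p = 0.0646) and -0.50 against Sep (adjusted p = 0.0649).

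Susp cells were compared with Sep cells, from which they differed in coculture with stroma and possibly in medium. These cannot be told apart here, and Susp cells may have touched the stroma before they were collected. No member was called by edgeR, where 0.731% of all tested genes were called, and 10 members had an unadjusted p under 0.05, or 10.8%, against 16.7% of all. DESeq2 called 1 member, SNHG8. The median log2 fold change was -0.045 over the members and -0.0059 over all tested genes, and 5 members did not overlap between groups, or 5.38%, against 11.3% of all. SNHG8, the host of a small nucleolar RNA, had 33.0, 36.8, 29.8 and 35.2 CPM in Sep, 40.0, 76.8, 46.1 and 49.7 in Susp, and 35.3, 33.5, 40.0 and 40.8 in Adh. Every Susp library was above every Sep library, with Susp replicate 2 far above the rest. Its log2 fold change was 0.65 (SE 0.16, adjusted p = 0.0681), and without Susp replicate 1 it was 0.77 and called (adjusted p = 0.0212). OLMALINC (0.56, adjusted p = 0.317) had the next largest rise after RP5-887A10.1, and the largest falls were those of RP11-819C21.1 (-0.52, adjusted p = 0.217), LINC00158 (-0.50, adjusted p = 0.361) and RP11-458F8.4 (-0.48, adjusted p = 0.350). Each pair of comparisons shares a group of libraries, so the values of a member in them are not independent.

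Without Susp replicate 2, 9 members were called between Adh and Sep (LINC01480 and RP5-887A10.1 besides the 7), 2 between Adh and Susp (LINC00665 and NEAT1) and 0 between Susp and Sep. Over all tested genes the calls without that library numbered 519, 89 and 80, beside 309, 100 and 94 with it. The number of members called between Adh and Sep rested on single libraries: it was 1, NEAT1, without Sep replicate 2, 3 without Adh replicate 1, and 4 without Sep replicate 4, Adh replicate 2 or Adh replicate 4. The count over all tested genes fell as well, to 143, 203, 173, 238 and 207 in that order. Between Adh and Susp the members called were 0 without Adh replicate 1 or Adh replicate 4, and 2 (LINC00665 and MALAT1) without Adh replicate 3, beside 51, 71 and 62 of all tested genes.

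Small RNA host transcripts of any biotype numbered 32 tested, 6 of them members. Between Adh and Sep 2 of the 32 were called, where 2.40% of all tested genes were, both lower, C1orf132 and SNHG4 (-0.74, adjusted p = 0.00858), and the list median was -0.0093. Between Adh and Susp 3 were called, where 0.778% of all tested genes were, all lower and none a member, SNHG3 (-0.62, adjusted p = 0.0194), SNHG4 (-0.68, adjusted p = 0.0283) and SNHG12 (-0.74, adjusted p = 0.0204), and the list median was -0.24. None was called between Susp and Sep by edgeR, and 2 by DESeq2 (SNHG7 and SNHG8). At an unadjusted p under 0.05 there were 11 of 32 between Susp and Sep, 9 between Adh and Sep and 12 between Adh and Susp, where the shares of all tested genes were 16.7, 20.2 and 18.0%. Among the member hosts, SNHG15 was at 59.1 ± 7.3 CPM in Sep, 74.95 ± 12.04 in Susp and 65.0 ± 2.0 in Adh (SD, n = 4). EPB41L4A-AS1, which overlaps EPB41L4A on the opposite strand, was at 34.3 ± 4.1, 43.6 ± 10.4 and 33.5 ± 5.8. MIR22HG, the miR-22 precursor, was at 5.75 ± 0.89, 6.95 ± 0.98 and 5.29 ± 1.20, and MIR4435-2HG at 5.49 ± 0.69, 5.31 ± 0.88 and 6.74 ± 0.82. The log2 fold changes of SNHG8, SNHG15, EPB41L4A-AS1 and MIR22HG were between 0.27 and 0.65 for Susp against Sep and between -0.51 and -0.21 for Adh against Susp, and none of them passed the test. The other member hosts differed from these. In the same comparisons C1orf132 was at -0.39 and -0.31, and MIR4435-2HG at -0.045 and 0.33, and neither passed.

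Of 8 tested nuclear or abundant long noncoding RNAs, 3 were members. MALAT1 and NEAT1 were called lower between Adh and Sep, and NEAT1 between Adh and Susp, with list medians of -0.57 and -0.0092. Over all tested genes 2.40% and 0.778% were called in these comparisons. Between Susp and Sep edgeR and DESeq2 called 0 of the 8. At an unadjusted p under 0.05 there were 1 of the 8 for Susp against Sep, 4 for Adh against Sep and 2 for Adh against Susp. Of all tested genes 16.7, 20.2 and 18.0% were at that p in the same order. NORAD had 182.5, 191.4, 174.7 and 204.3 CPM in Sep, 198.5, 137.6, 192.2 and 215.3 in Susp, and 196.9, 197.4, 195.0 and 167.3 in Adh. The groups overlapped in every comparison, with means of 188.2 ± 12.7, 185.9 ± 33.7 and 189.2 ± 14.6 CPM (SD, n = 4) and log2 fold changes of -0.018, 0.0075 and 0.026 for Susp against Sep, Adh against Sep and Adh against Susp. Each of these changes was smaller than its SE of 0.12. TUG1 (-0.14, adjusted p = 0.54) and OIP5-AS1 (-0.037, adjusted p = 0.90), abundant RNAs that are no members, did not pass the test between Adh and Sep. MIAT (-1.31, adjusted p = 0.22), KCNQ1OT1 (-0.997, adjusted p = 0.20) and CYTOR (0.55, adjusted p = 0.38), also no members, did not pass it either. MIAT had at most 18 counts in a library and CYTOR at most 48. The proteins that build paraspeckles and speckles were also counted: edgeR and DESeq2 called 0 of 22 in each comparison, with 1, 2 and 3 at an unadjusted p under 0.05 in Susp against Sep, Adh against Sep and Adh against Susp. Of 23 nuclear RNA decay factors 0 were called by either tool, with 3 at that p in each comparison, and of 15 nonsense-mediated decay factors 0 were called, with 1, 1 and 0. For these protein lists too, the shares of all tested genes at that p were 16.7, 20.2 and 18.0%. The shares called by edgeR were 0.731, 2.40 and 0.778%.

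Long noncoding RNAs reported in lymphocytes or lymphoma numbered 15 tested, 9 of them members, and edgeR called none in the 3 comparisons. At an unadjusted p under 0.05 there were 3 for Susp against Sep, 5 for Adh against Sep and 2 for Adh against Susp, and DESeq2 called 0, 1 (LINC01480) and 1 (LINC00158). Of all tested genes 16.7, 20.2 and 18.0% were at that p, and edgeR called 0.731, 2.40 and 0.778%, in the same order. LINC01480 had 17.6, 14.3, 17.9 and 17.1 CPM in Sep, 13.7, 14.1, 11.3 and 10.5 in Susp, and 12.8, 9.05, 13.6 and 6.80 in Adh. Its Sep libraries were above all others, with log2 fold changes of -0.43 for Susp (adjusted p = 0.258) and -0.66 for Adh (adjusted p = 0.0651) against Sep. PVT1, transcribed beside MYC, was at 8.25 ± 1.29, 9.21 ± 1.71 and 8.36 ± 0.75 CPM in Sep, Susp and Adh, and LINC00926 at 13.6 ± 4.0, 14.2 ± 2.7 and 12.4 ± 2.7 (SD, n = 4). CRNDE, LINC01215, LINC00494, LINC01268 and BISPR, the last beside the interferon-induced BST2, had log2 fold changes between -0.33 and 0.20 in the 3 comparisons.

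**Figure D4:**
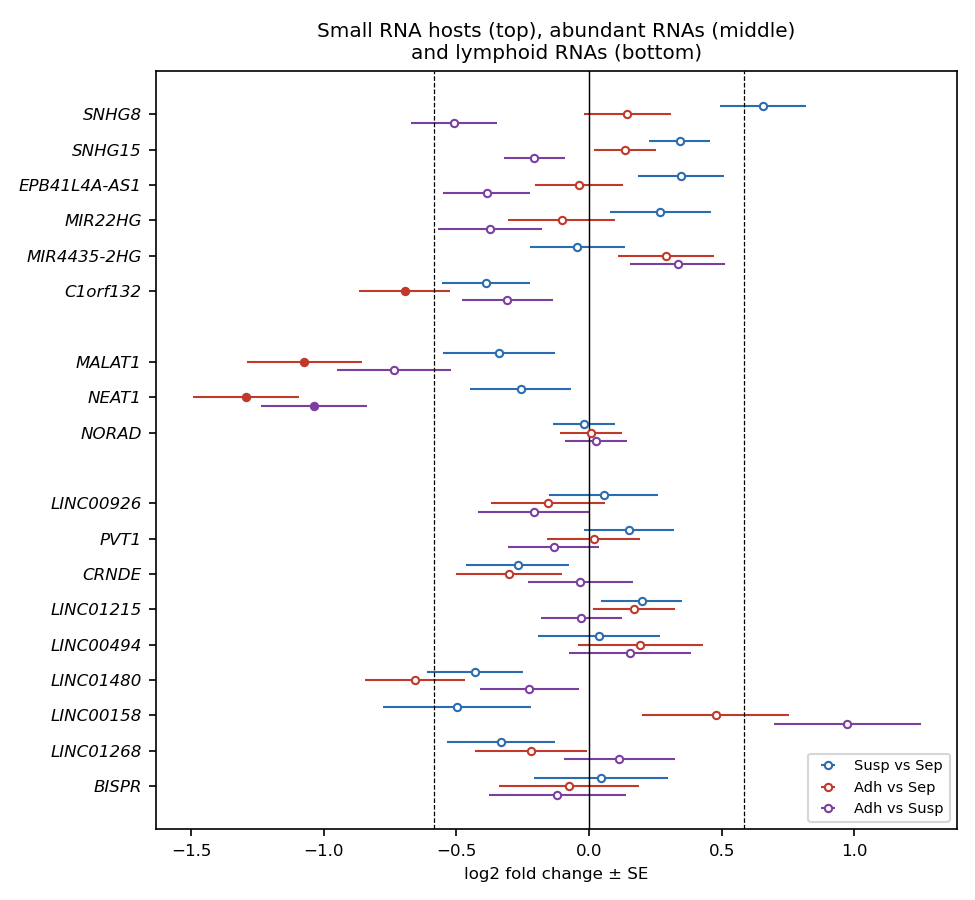
Log2 fold change ± SE of the members that host small RNAs (top), that are nuclear or abundant (middle) and that were reported in lymphoid cells (bottom) in the 3 comparisons; filled points were called and dashed lines mark a 1.5-fold change. Filled points are those of C1orf132, MALAT1 and NEAT1 between Adh and Sep and of NEAT1 between Adh and Susp.

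Members and their nearest protein-coding gene were set side by side for 65 members whose neighbour was tested. Both had the same sign of change for 42 between Susp and Sep, 37 between Adh and Sep and 40 between Adh and Susp, and Pearson's r across these pairs was 0.29, 0.20 and 0.22. These correlations are across genes in the same libraries, and some pairs overlap, so the points are not independent. Across the 86 members with a GENCODE 44 match, Spearman's rho of the Adh against Sep change was -0.041 with exon length, -0.13 with exon GC content and -0.075 with mean CPM. For Adh against Susp the rho was 0.023 with exon length, -0.35 with GC content and -0.27 with mean CPM. For Susp against Sep these were -0.11, 0.20 and 0.19.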

How the data were processed

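The authors assigned read pairs of poly(A)-selected libraries (TruSeq, which by itself does not record strand) to human or mouse with Xenome 1.0.1, aligned them with STAR 2.5.1b and counted uniquely mapped fragments on Ensembl 87 genes (GRCh38 and GRCm38) with featureCounts of Subread 1.5.2. The counts were deposited per gene without normalization, and were checked as whole numbers. Human counts of 12 REC-1 libraries and mouse counts of 8 libraries were used. Another 20 columns belong to other samples and were not used.

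The members and the gene lists were chosen with earlier results of these data known. In R 4.3.3, edgeR 4.0.16 (filterByExpr, TMM, and the legacy quasi-likelihood F-test) was fitted to the 3 REC-1 groups together without a replicate term, with Benjamini-Hochberg adjustment over 12861 genes. A call needed an adjusted p no higher than 0.05 and a fold change no smaller than 1.5. CPM used TMM library sizes, and RPKM also exon unions from GENCODE 44, matched by Ensembl ID, so lengths can differ from those used in counting. Promoters and 3′ ends were read from GRCh38 at GENCODE 44 positions. Motif letters were searched on both strands. Code was tested on simulated counts.

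Individual members are named if they were called, were among the 10 highest by RPKM, had 1 of the 3 largest rises or falls in a comparison, were on a list, or lay next to the count minimum. Replicate numbers were checked as pairs: same-numbered libraries deviated together (r above 0.1) for 3 of 4 numbers in the comparison of Adh with Sep and for 1 of 4 in each of the others, so the number was not used as a block. Alternatives were upper-quartile scaling, DESeq2 1.42.0, no low-count filter, a filter of 10 counts in each library, no fold minimum, fits of only the groups compared, a replicate block, other minimums for membership, and each library left out in turn. Leaving out libraries for the share of counts was added after seeing the data. Per library, 7758979 to 21467832 human counts limit the precision of members at a few CPM.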

Additional observations from a re-analysis of the deposited data

Results flagged for a closer look

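In 8 of 96 groups of 4 libraries examined for the individually named members, 1 library lay far from the other 3 by Dixon's ratio, of which about 1 in 20 would be marked by chance. Susp replicate 2 was the library in 3 of them: C1orf132 had 14.0 CPM there against 21.4 to 22.7 in the other Susp libraries, EBLN3P had 90.0 against 125.9 to 132.9, and RP5-887A10.1 had 12.4 against 6.24 to 7.01. Sep replicate 2 had 7.45 CPM of GS1-124K5.11 against 3.98 to 4.57, and Sep replicate 4 had 4.55 CPM of OLMALINC against 2.72 to 2.93. Susp replicate 3 had 3.48 CPM of LINC01268 against 4.98 to 5.17. Adh replicate 4 had 167.3 CPM of NORAD against 195.0 to 197.4, and 7.95 CPM of MIR4435-2HG against 6.17 to 6.45.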

How the results depend on the processing

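Against 0, 7 and 1 members called between Susp and Sep, Adh and Sep, and Adh and Susp, no low-count filter gave 1, 9 and 3, DESeq2 1, 8 and 4, and the replicate block, whose numbers were not shown to pair the libraries, 1 (SNHG8), 9 (with LINC00342 and LINC01480 added) and 2 (with MALAT1 added). Over all tested genes the calls were 94, 309 and 100, and these became 217, 503 and 341 with no low-count filter, 157, 454 and 230 by DESeq2, and 175, 384 and 281 with the block. With no fold minimum 2 were called between Adh and Susp, and with membership set at a mean of 20 counts 11 were called between Adh and Sep. Leaving out 1 library gave 0 to 1, 1 to 9 and 0 to 2. Under other settings the counts stayed within 1.5 times. Taken as a share of RPKM the members held 0.118% in Sep, 0.111% in Susp and 0.112% in Adh, so that the Adh mean was no longer below Susp, and all lincRNA rows held 0.202, 0.190 and 0.178% of counts. For 10 members in 3 comparisons, of 540 values under 18 alternatives, 496 kept direction and side of the threshold, 29 lost a call, 13 gained one and 2 changed sign, both in Susp against Sep: NEAT1 without Sep replicate 2 (log2 fold change 0.0071, within -0.40 to 0.0071 over left-out libraries) and LINC00996 without Susp replicate 2 (-0.0026, within -0.0026 to 0.21). Over 92 members, 31, 28 and 34 changed sign under some alternative in Susp against Sep, Adh against Sep and Adh against Susp, and their log2 fold changes were at most 0.26, 0.24 and 0.21 in size. The causes were not tested. Counting error limits members near 20 counts.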
